A study of Mus musculus with 2 samples.

Results

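The Gimap genes (GTPases of the immunity-associated protein family) were followed in droplet single-cell RNA sequencing of mouse yolk sac and of embryoid bodies. The members were 6 of the 33456 genes listed in the count tables, picked by symbol: Gimap1, Gimap4, Gimap5, Gimap6, Gimap8 and Gimap9. All 6 were found. 3 further Gimap rows (Gimap3, Gimap7 and the antisense transcript Gimap1os) were measured beside them. The yolk sac (YS) library came from C57BL/6 embryos at E9.5 and E10.5, mixed in equal numbers, frozen after dissociation and sorted to take out dead cells and about 70% of the cells with the erythroid surface antigen Ter119. The 2 stages and the individual embryos cannot be told apart in it. The embryoid body (EB) library came from C57BL/6 embryonic stem cells differentiated for 4 days under conditions that favour blood- and vessel-forming mesoderm, then frozen, thawed and sorted for live cells. The labels name no mutation, transgene or tested agent in either library. There was 1 library of each kind, so no difference had a replicate check, no test was possible and every value describes these libraries. The family was also put forward with earlier results of these data known, so its levels are a description.

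Gimap proteins are GTP-binding proteins related to the septins, several of them anchored to intracellular membranes. Their genes lie in 1 cluster, and they are known mostly from lymphocytes, whose survival and development several of them support. In mice, Gimap5 keeps lymphocytes alive and Gimap1 is needed for mature B and T cells. Gimap4 affects how fast T cells die by apoptosis, and Gimap6 binds the autophagy protein Gabarapl2 of the ATG8 family. Gimap8 carries tandem GTPase domains. The yolk sac of these stages makes its own endothelium, blood progenitors, macrophages and red cells, which are the cells compared here.

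The 9 Gimap genes span 123618 bases of chromosome 6 in the GRCm38 (mm10) build, from 48647234 to 48770851. In chromosome order they are Gimap8, Gimap9, Gimap4, Gimap6, Gimap7, Gimap1os, Gimap1, Gimap5 and Gimap3. Gimap6, Gimap1os and Gimap3 lie on the minus strand and the others on the plus strand. RefSeq (GRCm38.p6) promoter windows, running from 250 bases before to 50 bases after a gene's start, were found for 6 of 6 members, with 2 windows for Gimap8. The windows of the 5 members that carry nearly all of the Gimap UMIs are shown, 5′ to 3′ on the strand of the gene, because the results turn on the levels of these genes in endothelial-like and progenitor-like cells. Capitals mark AGGAAG, 1 form of the site of the ETS factors active in endothelium and blood, on either strand (CTTCCT where it lies on the other one). Gimap4 is at chr6:48684328-48684627 (plus strand), Gimap1 at chr6:48738797-48739096 (plus), Gimap5 at chr6:48745947-48746246 (plus), Gimap9 at chr6:48675885-48676184 (plus) and Gimap6 at chr6:48708195-48708494 (minus).
Gimap4: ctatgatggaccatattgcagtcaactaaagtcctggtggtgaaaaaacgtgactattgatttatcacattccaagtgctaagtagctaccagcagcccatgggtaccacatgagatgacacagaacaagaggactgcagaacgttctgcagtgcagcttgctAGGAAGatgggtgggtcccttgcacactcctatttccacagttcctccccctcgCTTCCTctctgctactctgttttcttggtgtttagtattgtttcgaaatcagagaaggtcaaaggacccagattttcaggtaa
Gimap1: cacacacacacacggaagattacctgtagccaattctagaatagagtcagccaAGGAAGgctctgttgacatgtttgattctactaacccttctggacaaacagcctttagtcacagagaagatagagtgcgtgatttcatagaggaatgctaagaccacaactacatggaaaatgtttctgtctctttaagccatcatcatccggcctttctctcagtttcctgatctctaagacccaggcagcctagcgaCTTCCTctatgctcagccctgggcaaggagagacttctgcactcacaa
Gimap5: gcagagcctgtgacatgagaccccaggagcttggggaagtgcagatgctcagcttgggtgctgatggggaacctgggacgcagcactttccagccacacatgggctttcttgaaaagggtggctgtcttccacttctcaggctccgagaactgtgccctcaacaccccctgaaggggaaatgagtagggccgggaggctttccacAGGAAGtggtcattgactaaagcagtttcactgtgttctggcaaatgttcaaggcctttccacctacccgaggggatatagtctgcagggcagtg
Gimap9: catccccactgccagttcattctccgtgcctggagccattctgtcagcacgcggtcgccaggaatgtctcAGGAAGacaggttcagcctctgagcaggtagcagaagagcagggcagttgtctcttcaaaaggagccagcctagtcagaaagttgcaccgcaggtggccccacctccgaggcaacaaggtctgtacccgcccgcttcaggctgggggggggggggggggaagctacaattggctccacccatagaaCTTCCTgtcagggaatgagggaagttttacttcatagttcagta
Gimap6: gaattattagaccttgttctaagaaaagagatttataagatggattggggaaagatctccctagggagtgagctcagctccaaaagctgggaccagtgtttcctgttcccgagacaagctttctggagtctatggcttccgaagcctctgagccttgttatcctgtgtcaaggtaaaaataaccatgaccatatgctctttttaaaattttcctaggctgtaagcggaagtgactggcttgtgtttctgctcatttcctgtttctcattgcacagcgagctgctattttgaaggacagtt

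AGGAAG stood in the windows of 5 of 6 members, all but Gimap6, against 35.4% of 32851 windows of 27025 genes. Counted by window, it stood in 5 of the 7 member windows. It also stood in the windows of Gimap7 and Gimap3, which had 2 and 0 UMIs in YS cells. AGGAAG is not the only form of the ETS site. The shorter core GGAA, counted after the values were seen, stood in all 6 members, Gimap6 included, and in 96.0% of all windows. In Gimap4 the matches began 87 and 33 bases before the start, and in Gimap5 the match began 45 bases before it. In Gimap1 they began 197 bases before and 2 bases after the start, and in Gimap9 180 bases before and 6 bases after. Gimap8 had its match 48 bases before the start in 1 of its 2 windows. None of the 6 members held the RUNX motif TGTGGTT (5.27% of all windows), the GATA motif GATAAG (7.44%) or the E-box CAGCTG (16.3%), each searched on both strands. The GC box GGGCGG was in 1 member, Gimap9 (35.7% of all windows), and overlapped no AGGAAG there. A match of letters is not evidence of binding, and the lack of a match says only that these letters are not in these windows.

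The YS table gave 773 cells with at least 6537 unique molecular identifiers (UMIs, 1 per captured RNA molecule) and at most 10% mitochondrial UMIs, at a median of 28461 UMIs per cell. The EB table gave 1875 cells with at least 6172 UMIs, at a median of 25537. The tables shared 2 cell barcodes. YS cells were grouped by clustering without the Gimap rows, and 12 clusters gave 10 named classes and 1 unnamed cluster of 30 cells. The 48 endothelial-like cells were at least 2-fold above the other YS cells for 16 of 16 endothelial markers, among them Cdh5 (VE-cadherin). Macrophage-like cells (40) were so for 12 of 12 macrophage markers and each of the 2 erythroid-like clusters (153 cells together) for 11 of 11 erythroid markers. The 110 hematopoietic progenitor-like cells were so for 8 of 12 progenitor markers, but only Cd34 was among the 10 leading genes of their cluster, so this name is the weakest. Of the class genes, Cdh5 stood at 429 CPM (UMIs of the gene per 1000000 UMIs of the population) in endothelial-like cells and 15.1 CPM in progenitor-like cells. Runx1, a blood-forming transcription factor, stood at 10.8 CPM in endothelial-like cells and 111 CPM in progenitor-like cells. Cd34 was similar in both, at 312 and 292 CPM in endothelial-like and progenitor-like cells. Neither Runx1 nor Cd34 was particular to progenitor-like cells. Granulocyte and mast cell-like cells had Runx1 at 125 CPM and Cd34 at 240 CPM, and macrophage-like cells had Runx1 at 86.4 CPM. Csf1r, the macrophage growth factor receptor, stood at 197 CPM in macrophage-like cells, and the embryonic globin gene Hbb-y at 139119 CPM in erythroid-like cells. The share of erythroid-like cells was set in part by the sort against Ter119.

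Gimap transcripts were at their highest in endothelial-like cells, followed by progenitor-like cells, and nearly missing in erythroid-like cells. The 6 members summed stood at 760.4 CPM in endothelial-like cells, with a 95% exact Poisson interval of 699 to 826. Progenitor-like cells had 309 CPM (293 to 326), granulocyte and mast cell-like cells 137 CPM (123 to 152) and megakaryocyte-like cells 29.8 CPM (23.4 to 37.4). Such intervals cover counting error only, since each class comes from 1 library. Macrophage-like cells had 27.0 CPM (18.8 to 37.6) and erythroid-like cells 1.1 CPM (0.402 to 2.38). The intervals of megakaryocyte-like and macrophage-like cells overlapped, so their order is not resolved, and the steps above them and the step down to erythroid-like cells were wider than the intervals. Extraembryonic endoderm-like cells stood at 41.5 CPM (28.2 to 58.9), smooth muscle-like cells at 11.4 CPM (7.39 to 16.9) and mesothelial-like cells at 5.14 CPM (2.74 to 8.78).

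**Figure D1:**
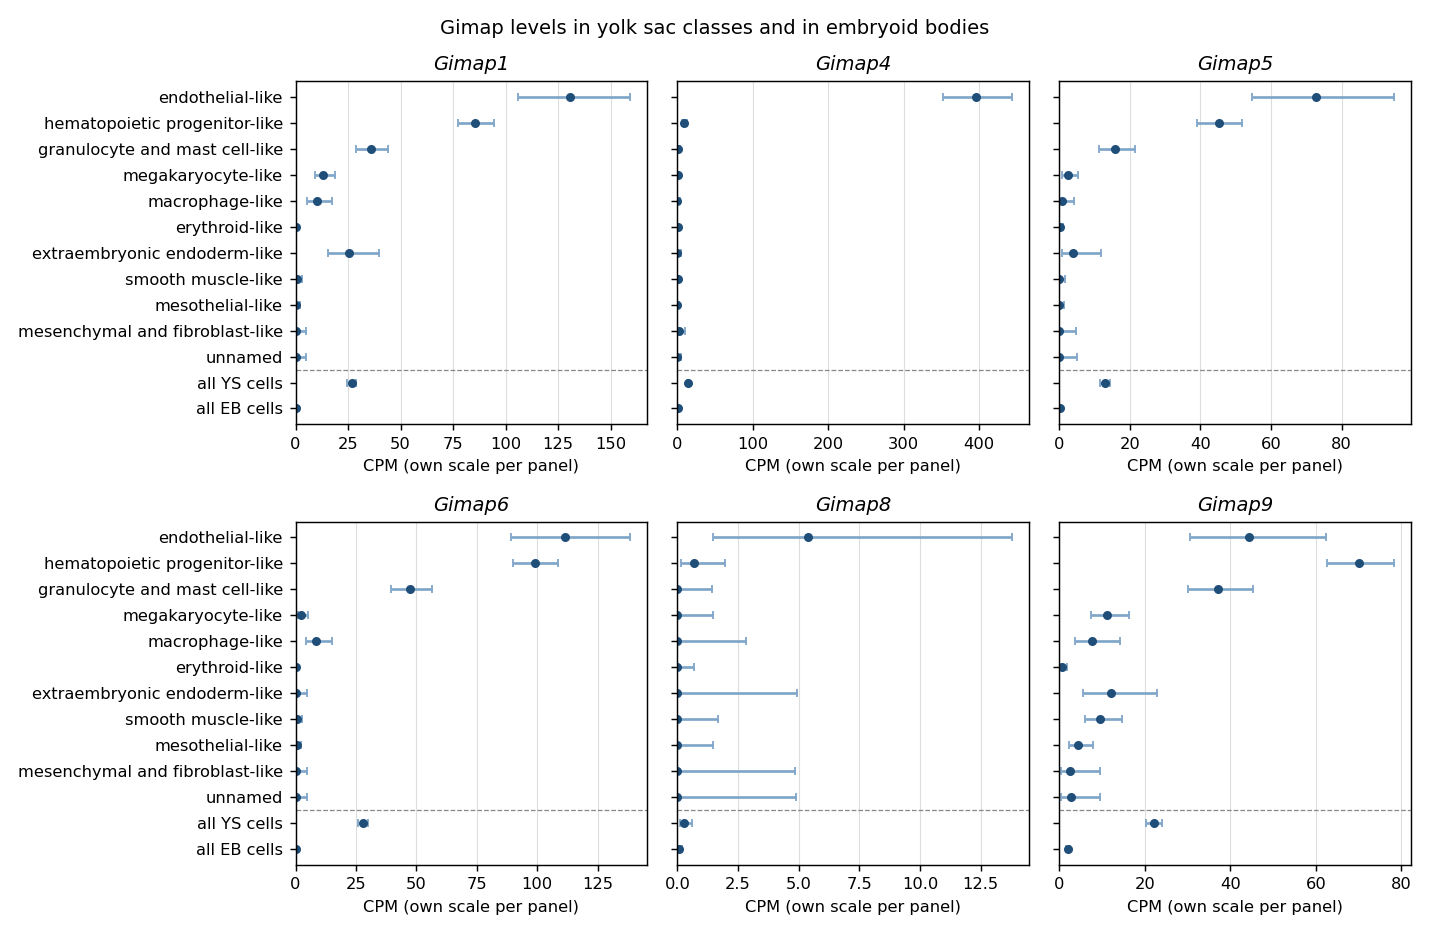
Level of each Gimap member (panels, each on its own linear CPM scale) in the YS classes, in all YS cells and in all EB cells. Points are CPM and bars are 95% exact Poisson intervals; Gimap4 stands at 396 CPM in endothelial-like cells and 8.90 CPM in progenitor-like cells, while Gimap9 is higher in progenitor-like cells.

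Gimap4 set the endothelial-like cells apart from all the others. It stood at 396 CPM (352 to 444) there and was detected in 44 of 48 cells, with up to 23 UMIs in a cell. Progenitor-like cells had 8.90 CPM (6.36 to 12.1), in 24 of 110 cells. The endothelial-like level was 44.5 times the progenitor-like one (31.9 to 63.5, exact conditional interval). Granulocyte and mast cell-like cells held 3 Gimap4 UMIs, megakaryocyte-like cells 1, erythroid-like cells 1 and macrophage-like cells 0. A count of 0 in the macrophage-like cells allows up to 2.31 CPM (3 counts of their total). Of the 342 Gimap4 UMIs in YS cells, 294 came from the 48 endothelial-like cells. The median endothelial-like cell held Gimap4 at 431 CPM and the highest at 1191 CPM, and 4 cells held none.

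Gimap1, Gimap5 and Gimap6 were spread over both endothelial-like and progenitor-like cells. Gimap1, needed for mature lymphocytes, had 131 CPM (106 to 159) in endothelial-like cells and 85.6 CPM (77.3 to 94.6) in progenitor-like cells, a ratio of 1.52 (1.21 to 1.91). It was found in 39 of 48 and 95 of 110 cells of these classes. Gimap5, the lymphocyte survival factor, had 72.7 CPM (54.6 to 94.8) in endothelial-like cells and 45.2 CPM (39.2 to 51.8) in progenitor-like cells, a ratio of 1.61 (1.17 to 2.18). Gimap6, the Gabarapl2 binder, had 112 CPM (89.0 to 138) in endothelial-like cells and 99 CPM (90.0 to 109) in progenitor-like cells. Its ratio of 1.13 had an interval from 0.882 to 1.43, so the classes were not separated for Gimap6 at this depth.

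Gimap9 had the opposite order in CPM by class. It stood at 44.4 CPM (30.6 to 62.4) in endothelial-like cells and 70.1 CPM (62.5 to 78.3) in progenitor-like cells, a ratio of 0.634 (0.429 to 0.909). It was found in 26 of 48 endothelial-like and 86 of 110 progenitor-like cells, but the progenitor-like cells were deeper, at a median of 40939 UMIs against 13184.5. Thinned to 6000 UMIs per cell, Gimap9 was in 15 of 48 endothelial-like and 31 of 110 progenitor-like cells, so detection at equal depth did not show the order seen in CPM. Gimap8 was scarce: 4 UMIs in 4 endothelial-like cells (5.38 CPM, 1.47 to 13.8), 3 UMIs in 3 progenitor-like cells (0.667 CPM, 0.138 to 1.95) and 0 in every other YS class. With 7 UMIs it fell under the minimum of 10 for a comparison within the yolk sac.

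Of the 5 members with enough UMIs, 1 was at least 2-fold higher in endothelial-like than in progenitor-like cells, where 24.0% of the 10326 genes compared were, and none was at least 2-fold lower (13.7% of genes). Against all other YS cells, 5 of 5 members were at least 2-fold higher in endothelial-like cells, where 20.8% of 13456 genes were. Those ratios were 192 (141 to 267) for Gimap4, 6.65 for Gimap5, 5.58 for Gimap1, 4.44 for Gimap6 and 2.08 (1.42 to 2.96) for Gimap9. Progenitor-like cells were at least 2-fold above the other YS cells for 4 of 5 members, against 6.52% of genes. The ratios were 8.61 for Gimap6, 8.34 for Gimap5, 6.50 for Gimap1 and 6.35 for Gimap9, while Gimap4 was at 0.577 (0.404 to 0.804) (the other cells here include the endothelial-like ones).

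The make-up of the Gimap UMIs differed between populations. UMIs were not divided by transcript length, so these shares are set side by side between populations and not between genes. Gimap4 gave 52.0% (47.8 to 56.2, exact binomial interval) of the 565 member UMIs of endothelial-like cells and 2.88% (2.06 to 3.90) of the 1391 of progenitor-like cells. Gimap9 gave 5.84% in endothelial-like cells and 22.6% in progenitor-like cells. In smooth muscle-like cells Gimap9 gave 21 of 25 member UMIs, and in EB cells 100 of 124. In extraembryonic endoderm-like cells Gimap1 gave 19 of 31, with Gimap4 and Gimap6 at 0.

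**Figure D2:**
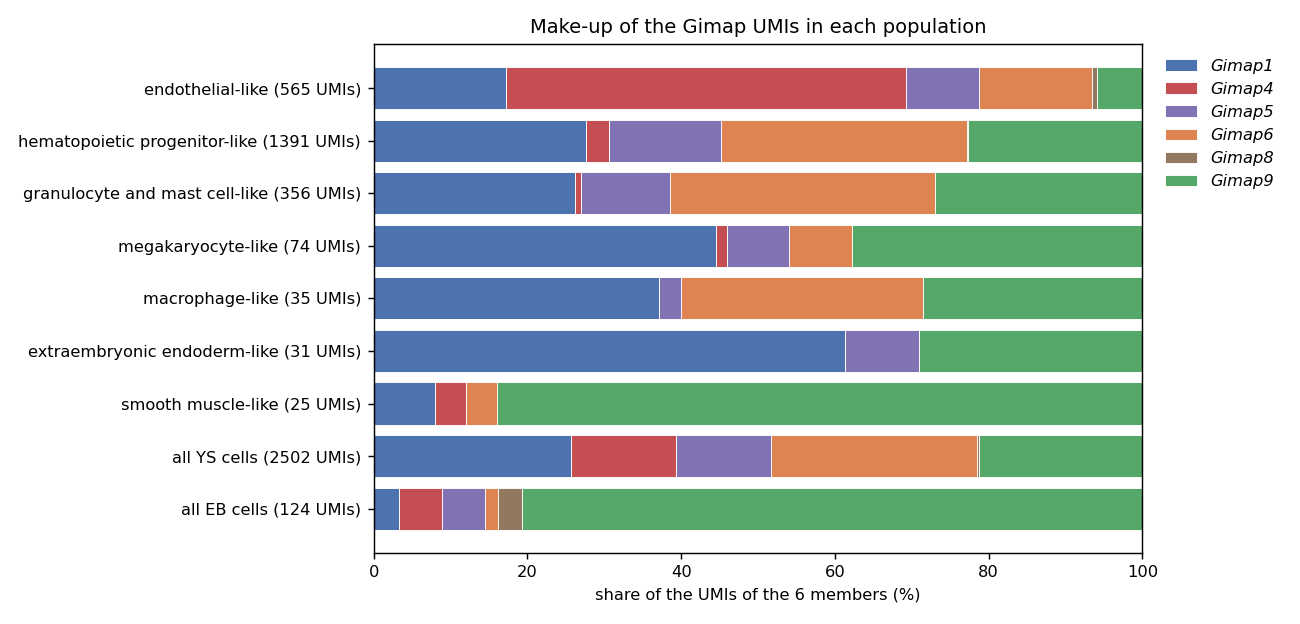
Share of the UMIs of the 6 Gimap members (x axis, percent) that each member gives in 7 YS classes, in all YS cells and in all EB cells, with the number of UMIs beside each name. Gimap4 takes 52.0% in endothelial-like cells and 2.88% in progenitor-like cells, and Gimap9 takes most of the UMIs in smooth muscle-like and EB cells.

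Among blood cells the family was lower in the granulocyte and mast cell-like, megakaryocyte-like and macrophage-like cells than in progenitor-like cells. Progenitor-like cells had 2.25 times (2.00 to 2.54) the summed level of granulocyte and mast cell-like cells, and 4 of 5 members were at least 2-fold higher (5.94% of genes), with Gimap9 at 1.89. Against megakaryocyte-like cells the summed ratio was 10.4 (8.23 to 13.3), with 5 of 5 members higher (15.6% of genes). Those 5 ratios ran from 6.22 for Gimap9 and 6.45 for Gimap1 to 41.0 for Gimap6. Megakaryocyte-like cells still held Gimap1 at 13.3 CPM (9.14 to 18.6) and Gimap9 at 11.3 CPM (7.48 to 16.3), while Gimap5 and Gimap6 had 6 UMIs each there.

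Macrophage-like cells held Gimap1 at 10.0 CPM (5.34 to 17.2, 12 of 40 cells), Gimap6 at 8.49 CPM (4.24 to 15.2, 10 cells) and Gimap9 at 7.72 CPM (3.70 to 14.2, 7 cells). Gimap5 had 1 UMI and Gimap4 none. All 5 members were at least 2-fold lower in macrophage-like cells than in the other YS cells, where 14.9% of genes were, and the summed ratio was 0.249 (0.173 to 0.348). Progenitor-like cells had 11.5 times (8.20 to 16.5) the summed level of macrophage-like cells, with 5 of 5 members at least 2-fold higher (13.6% of genes). Erythroid-like cells held 6 member UMIs in all, 4 of them Gimap9, with Gimap1 and Gimap6 at 0 (up to 0.548 CPM). All 5 members were at least 2-fold lower in erythroid-like cells than in the other YS cells, but so were 55.5% of genes. Hemoglobin transcripts took 31.6% of the UMIs of erythroid-like cells.

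Cell by cell, all 48 endothelial-like cells held a UMI of at least 1 member, as did 107 of 110 progenitor-like cells. So did 63 of 70 granulocyte and mast cell-like, 34 of 59 megakaryocyte-like, 21 of 40 macrophage-like and 6 of 153 erythroid-like cells. Thinned to 6000 UMIs, the counts were 48 of 48 endothelial-like, 76 of 110 progenitor-like, 32 of 70 granulocyte and mast cell-like, 8 of 40 macrophage-like and 2 of 153 erythroid-like cells. An empty YS droplet held a member UMI in an expected 0.673% of cases, against 3.92% of erythroid-like and 100% of endothelial-like cells. These shares are at unlike depth, since an empty YS droplet held a mean of 54.2 UMIs. Per UMI, YS empty droplets held the members at 124 CPM. Within a class the spread was wide. The summed level ran from 123 CPM over a median of 786 CPM to 1507 CPM in endothelial-like cells, and from 0 over 287 CPM to 1174 CPM in progenitor-like cells. The median cell of both classes showed 4 of the 6 members at its own depth, but at 6000 UMIs per cell the median was 3 members in endothelial-like and 1 in progenitor-like cells, with 34 of 110 progenitor-like cells showing none. In the 24 deeper endothelial-like cells the sum was 698 CPM (628 to 773) and in the 24 shallower ones 909 CPM (788 to 1044), so both lay above every other class.

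**Figure D3:**
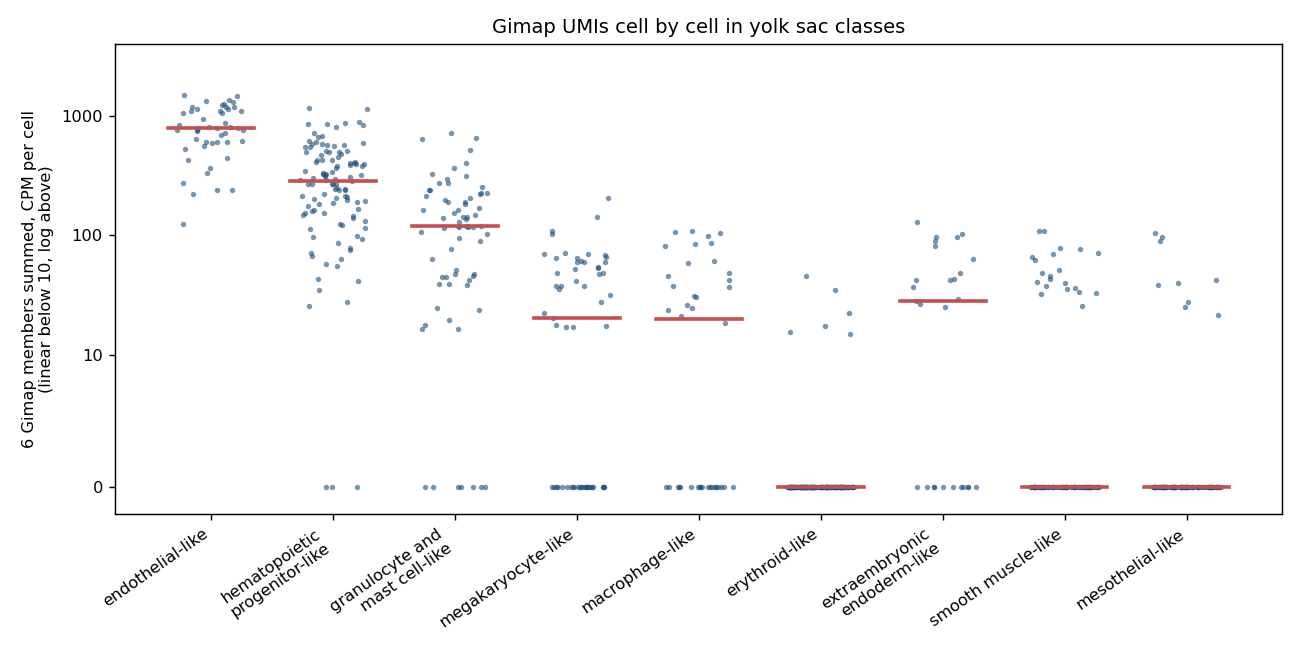
Summed CPM of the 6 Gimap members in each YS cell (points) of 9 classes; the y axis is linear below 10 CPM and logarithmic above, and red bars are class medians. Every endothelial-like cell lies at or above 123 CPM, the progenitor-like median is 287 CPM, and 147 of 153 erythroid-like cells lie at 0.

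Gimap1 and Gimap5 were seen together within progenitor-like cells. Gimap5 was in 73 of the 95 cells with Gimap1 (76.8%) and in 3 of the 15 without it (20%), but cells with Gimap1 were deeper, at a median of 45100 UMIs against 32202. At 6000 UMIs per cell the shares were 39.0% of cells with Gimap1 and 15.9% of cells without it. In endothelial-like cells at that depth Gimap5 was in 37.9% of the cells with Gimap1 and 42.1% of those without it, the opposite order. For the other members set beside Gimap1, the gap in progenitor-like cells at 6000 UMIs was smaller. Gimap6 was in 41.5% of cells with Gimap1 and 33.3% of those without it, and Gimap9 in 31.7% and 26.1%. Gimap4 went the other way, at 0% and 7.25%. Some pairs without Gimap1 had a wide gap too. Gimap6 was in 51.9% of cells with Gimap5 and 31.3% of those without it. Gimap6 was also in 80% of the 5 cells with Gimap4 and 34.3% of those without it. Gimap9 went the other way beside Gimap4, at 20% and 28.6%. These are counts of cells in 1 library.

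Cells taken by gene alone, without clusters, gave the same order at the ends. The 43 cells with at least 2 Cdh5 UMIs and no Runx1, 42 of them endothelial-like, had a summed level of 771 CPM (705 to 842) with Gimap4 at 399 CPM. The 45 cells with both Cdh5 and Runx1 UMIs, 35 of them progenitor-like and 3 endothelial-like, had 333 CPM (308 to 360). Gimap4 stood at 23.5 CPM (17.1 to 31.5) in them. Its 44 UMIs lay in 10 cells, with 75% in 3 cells and 23 UMIs in 1 endothelial-like cell, so this level rests on few cells. The 91 cells with Runx1 and Cd34 and without Cdh5 or Csf1r, of which 46 were progenitor-like, 29 granulocyte and mast cell-like and 7 smooth muscle-like, had 199.97 CPM (186 to 215) with Gimap4 at 2.79 CPM (1.34 to 5.12). Gimap9 was not separated by gates. It stood at 46.2 CPM (31.2 to 65.9) in the 43 cells with Cdh5 and no Runx1, and at 48.2 CPM (41.3 to 55.9) in these 91. The 26 cells with at least 2 Csf1r UMIs and no Cd34, of which 23 were macrophage-like, had 29.1 CPM (18.7 to 43.3). The cells with at least 10% hemoglobin UMIs were the same 153 cells as the erythroid-like class.

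Within the endothelial-like class, the 24 cells with more Lyve1, a hyaluronan receptor of lymphatic and sinusoidal vessels, had a summed Gimap level of 900.4 CPM (801 to 1008), against 647 CPM (571 to 729) in the 24 with less. The ratio was 2.27 (1.26 to 4.19) for Gimap5 and 1.51 (1.19 to 1.91) for Gimap4, and 1 of 5 members was at least 2-fold higher, against 8.32% of genes. The intervals for Gimap1, Gimap6 and Gimap9 included 1. Cdh5 was higher in the Lyve1-high cells as well, at 522 CPM against 354 CPM, and those cells were shallower, at a median of 10759.5 UMIs against 16235. The part of depth or of purity in this difference was not tested. Within the progenitor-like class, the 38 cells with a Cdh5 UMI had 1.5 times (1.13 to 2.00) the Gimap5 and 1.38 times (1.09 to 1.73) the Gimap9 of the 72 without, and the interval for Gimap4 (0.924 to 3.55) included 1. None of the 5 members was 2-fold higher there (4.20% of genes). Between the 50 progenitor-like cells with the leukocyte gene Ptprc (CD45) and the 60 without, the summed ratio was 1.03 (0.925 to 1.14) and the interval of every member included 1.

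The whole yolk sac stood far above the embryoid bodies. The 6 members summed had 104 CPM (99.9 to 108) in YS cells, against 2.45 CPM (2.04 to 2.92) in EB cells, a ratio of 42.4 (35.4 to 51.2). All 6 members were at least 2-fold higher in YS cells, against 21.5% of 15613 genes. Gimap1 had 26.7 CPM in YS cells, against 4 UMIs in all EB cells (ratio 338, 131 to 1243). Gimap6 had 27.8 CPM in YS cells, against 2 UMIs in EB cells, and Gimap4 14.2 CPM in YS cells, against 7 UMIs in EB cells. Gimap5 had 12.8 CPM in YS cells, against 7 UMIs in EB cells. For Gimap8, with 7 UMIs in YS cells and 4 in EB cells, the interval of the ratio (0.934 to 17.1) included 1. A UMI of any member was in 329 of 773 YS cells, against 106 of 1875 EB cells. Without the erythroid-like cells the summed YS to EB ratio was 54.7 (45.7 to 66.1).

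Gimap9 was the member with most UMIs in embryoid bodies, at 22.1 CPM (20.2 to 24.0) in YS cells, against 1.98 CPM (1.61 to 2.41) in EB cells, a ratio of 11.2 (8.99 to 13.9). It was in 89 of 1875 EB cells (4.75%), against an expected 0.0400% of empty EB droplets. These shares are at unlike depth, since an empty EB droplet held a mean of 252 UMIs. Per UMI, EB empty droplets held Gimap9 at 1.59 CPM (0.906 to 2.58), with an interval that overlapped that of EB cells. At 6000 UMIs per cell, Gimap9 was in 17 EB cells. The EB cells were thus not empty of the family, and what they held was mainly Gimap9.

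The 3 other Gimap rows were low. Gimap3, a mouse paralogue of Gimap5, had 0 UMIs in both libraries (up to 0.125 CPM in YS and 0.0593 CPM in EB cells), and Gimap7 had 2 UMIs in YS and 0 in EB cells. Gimap1os, transcribed against Gimap1 and overlapping it by 2391 bases, had 36 UMIs in YS cells and 1 in EB cells. Of the 36, 26 were in progenitor-like cells (5.78 CPM) and 4 in endothelial-like cells (5.38 CPM). How reads were assigned to strand is not given in the sources used here, so reads of Gimap1 and Gimap1os may not be fully separated. A read-through gene annotated across Gimap7, Gimap1 and Gimap5 (Gm28053) had 0 UMIs and shares 6.44% of the exon bases of Gimap1 and 3.69% of those of Gimap5, so their counts carry that uncertainty.

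**Figure D4:**
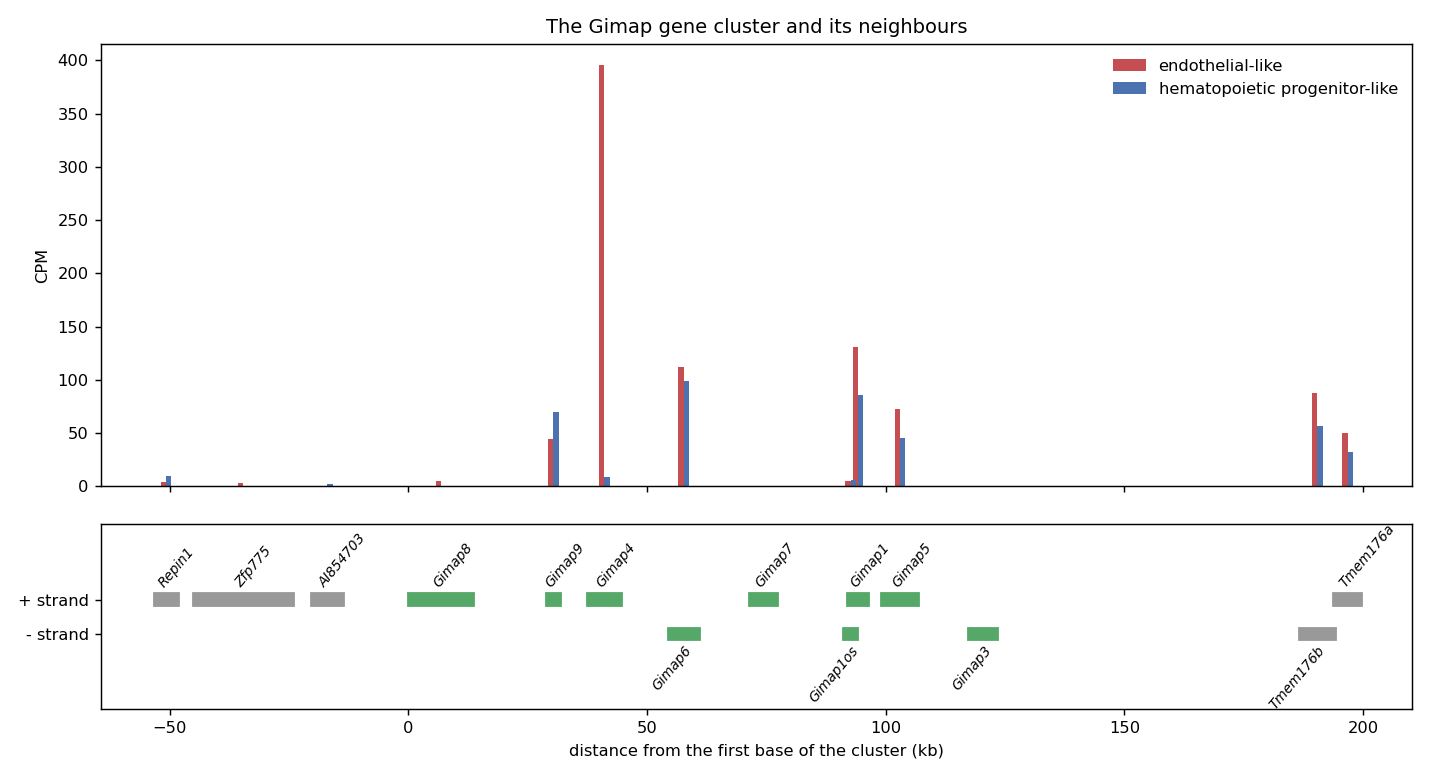
Level in endothelial-like (red) and progenitor-like (blue) cells, in CPM on a linear axis, of the Gimap genes (green boxes) and their neighbours (grey boxes), placed by distance from the first base of the cluster in kb. Gimap4 is the gene with the widest gap between the classes, and the neighbours nearest on the left, Repin1, Zfp775 and AI854703, lie under 10 CPM.

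The neighbours on the left were low in both classes: Repin1 had 4.04 CPM in endothelial-like and 9.57 CPM in progenitor-like cells. On the right, the membrane protein gene Tmem176b lies 63.0 kb past the cluster and had 87.5 CPM in endothelial-like and 57.0 CPM in progenitor-like cells. Its partner Tmem176a had 49.8 CPM in endothelial-like and 31.8 CPM in progenitor-like cells, and the next genes, Aoc1 and 1600015I10Rik, had at most 1 UMI in either class. Tmem176b also had 105.5 CPM in smooth muscle-like cells and 20.1 CPM in EB cells, while the Gimap sum was 11.4 CPM in smooth muscle-like and 2.45 CPM in EB cells, so the 2 groups of genes did not share 1 pattern.

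The genes whose levels ran most like the family over the 12 YS clusters were found by Pearson's r on log2(CPM + 20) among 7364 genes. The clusters share 1 library and differ in depth, so r is a description with n = 12. The sum was most like Ica1, a vesicle-associated autoantigen of islet cells (r = 0.984), Afap1l1, an actin-associated adaptor (0.975), and Clec1b, the platelet podoplanin receptor CLEC-2 (0.958). The next 7 were Gm16104, Ttc7b, Ctla2a, Mfng, Ctla2b, Ipo11 and Cd34, with r between 0.944 and 0.921. Ica1 had 49.8 CPM in endothelial-like and 32.7 CPM in progenitor-like cells, and Afap1l1 had 84.8 CPM in endothelial-like and 41.4 CPM in progenitor-like cells. Gimap4 was most like the endothelial junction and surface genes Cldn5 (0.999), Emcn (0.998) and Cdh5 (0.996), all of which helped to form the endothelial-like cluster. On this scale Gimap4 stood at 8.70 in that cluster and at most at 4.85 in any other. Its r thus rests on 1 cluster, and any gene confined to that cluster would come out near 1. Gimap6 was most like Cd34 (0.974), and Gimap9 most like Gpr97, an adhesion receptor (0.945), Mfng, a glycosyltransferase of the Notch pathway (0.943), and Cd34 (0.940). Gimap1 and Gimap5 shared Ica1 and Afap1l1 among their 3 closest genes. Among members, r was 0.960 for Gimap1 with Gimap5 and 0.966 for Gimap5 with Gimap6, but 0.520 for Gimap4 with Gimap9.

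**Figure D5:**
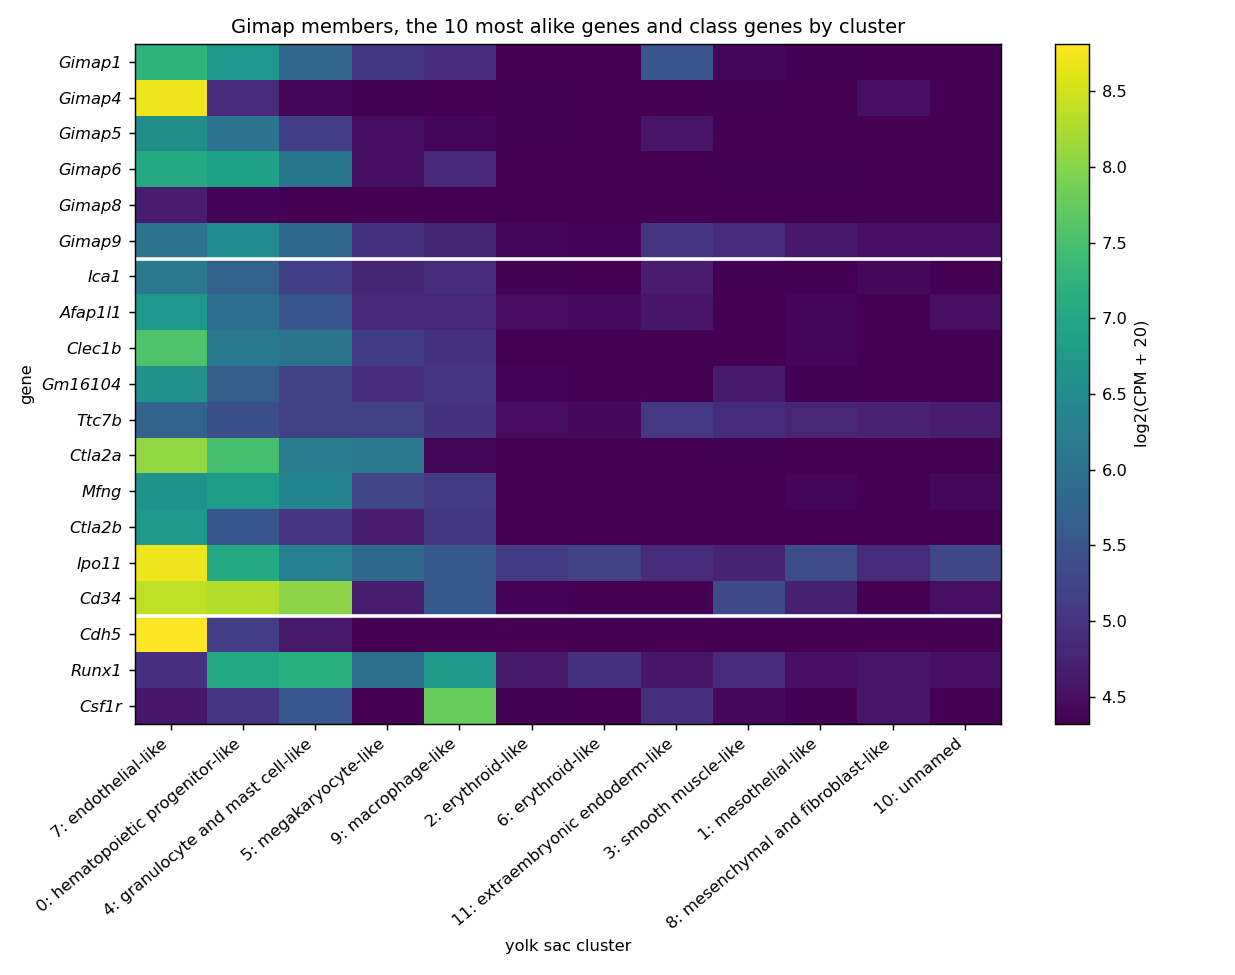
Levels on the log2(CPM + 20) scale (colour) of the 6 Gimap members, the 10 genes most like their sum, and the class genes Cdh5, Runx1 and Csf1r in the 12 YS clusters (columns). The members and the like genes are brightest in the first columns, endothelial-like and progenitor-like, and Gimap4 is bright in the endothelial-like column alone.

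Lists of related genes were counted by the same rule of 2-fold, as a description, since the clusters were formed with these genes. Sinusoidal and scavenger genes were higher in endothelial-like than in other YS cells for 7 of 8 genes (20.8% of all genes) and lower for 0 (10.4%). The list median log2 ratio was 4.70, against 0.05 for all genes. Stab2 stood at 479 CPM in endothelial-like and 0.445 CPM in progenitor-like cells, and Lyve1 at 1380 CPM in endothelial-like and 24.5 CPM in progenitor-like cells. Clec4g had 3 UMIs and the Fc receptor gene Fcgr2b 0 in endothelial-like cells. Some of these genes were also high in another class. Mrc1 had 226 CPM in endothelial-like and 233 CPM in macrophage-like cells, and Maf 432 and 387 CPM. Clec4g had 4.04 CPM in endothelial-like and 11.9 CPM in smooth muscle-like cells. In progenitor-like against other YS cells the same list had 1 gene higher and 7 lower (20.1% of all genes), with a median of -2.57 against 0.02 for all genes. Arterial and hemogenic genes were higher in endothelial-like than in other YS cells for 7 of 9 compared and lower for 1, Runx1 (median 4.37). Of these, the Notch ligand Dll4 had 55.2 CPM in endothelial-like and 0.222 CPM in progenitor-like cells, and Sox17 had 101 CPM in endothelial-like and 4.00 CPM in progenitor-like cells. Gfi1, a transcriptional repressor of blood progenitors, had 0 UMIs in endothelial-like and 11 in progenitor-like cells. In progenitor-like cells, 2 of the 9 were higher (6.52% of all genes) and 3 lower (20.1%), with a median of -0.46.

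The partners and relatives of the Gimap proteins are set beside these shares of all genes: 20.8% higher and 10.4% lower in endothelial-like cells, and 6.52% higher and 20.1% lower in progenitor-like cells, each against the other YS cells. Of 7 ATG8 family and Gimap6-linked autophagy genes, 1 was higher and 0 lower in endothelial-like cells (median 0.77), and 1 higher and 1 lower in progenitor-like cells (median -0.29). The highest was Tecpr1, at 39.0 CPM in endothelial-like and 3.78 CPM in progenitor-like cells, followed by Gabarap, at 490 CPM in endothelial-like and 226 CPM in progenitor-like cells. At the low end were Gabarapl1, at 71.3 CPM in endothelial-like and 121 CPM in progenitor-like cells, and Sqstm1, at 61.9 CPM in endothelial-like and 41.4 CPM in progenitor-like cells. Gabarapl2, the binding partner of Gimap6, was within 2-fold, at 187 CPM in endothelial-like and 117 CPM in progenitor-like cells.

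Of 9 BCL2 family genes compared, 2 were higher and 1 lower in endothelial-like cells (median 0.54), and 1 was higher and 2 lower in progenitor-like cells (median 0.34). The survival gene Bcl2 had 43.1 CPM in endothelial-like and 2.89 CPM in progenitor-like cells, and its relative Bcl2l1 37.7 CPM in endothelial-like and 17.4 CPM in progenitor-like cells. The death agonist Bid had 4.04 CPM in endothelial-like and 49.6 CPM in progenitor-like cells, and Bcl2a1b had 0 UMIs in endothelial-like and 1 in progenitor-like cells. Septins, GTPases with a related fold, had 3 of 9 higher and 1 lower in endothelial-like cells (median 0.67), and 2 higher and 3 lower in progenitor-like cells (median -0.20). Sept10 had 53.8 CPM in endothelial-like and 0.890 CPM in progenitor-like cells, and Sept11 192 CPM in endothelial-like and 66.3 CPM in progenitor-like cells. Sept4 went the other way, at 2.69 CPM in endothelial-like and 0.667 CPM in progenitor-like cells, against 156 CPM in smooth muscle-like cells. Sept1 had 6.73 CPM in endothelial-like and 14.7 CPM in progenitor-like cells. For the autophagy, BCL2 and septin lists these counts are small and lie near the shares of all genes, so nothing is read from them about the lists.

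All 5 interferon-induced GTPases compared, another family of immune GTPases, were higher in endothelial-like cells (20.8% of all genes; median 1.77), but on 3 to 9 UMIs each. In progenitor-like cells 0 were higher (6.52% of all genes) and 3 lower (20.1%), with a median of -1.08. Irgm2, Gbp3, Igtp and Irgm1 had 3 UMIs each in endothelial-like cells, and 1, 1, 6 and 8 UMIs in progenitor-like cells. Macrophage-like cells had more Gbp7 than endothelial-like cells, at 34.7 CPM (25.3 to 46.5) against 12.1 CPM (5.54 to 23.0). Gbp3, Irgm1 and Igtp stood at 11.6, 8.49 and 6.17 CPM in macrophage-like cells, against 4.04 CPM each in endothelial-like cells, with overlapping intervals. Irgm2 went the other way, at 3.09 CPM against 4.04 CPM. In YS against EB cells, 1 of 8 was higher and 7 were lower (18.6% of all genes), with a median of -2.13 against 0.00 for all genes, where all 6 Gimap members were higher.

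Lymphoid genes were checked because Gimap genes are known from lymphocytes. Rag1, Rag2, Pax5, Cd3e and Ccr9 had 0 UMIs in YS cells. Of the 7 lymphoid genes compared, 3 were higher (20.8% of all genes) and 1 lower (10.4%) in endothelial-like cells (median 0.24). In progenitor-like cells 2 were higher (6.52%) and 1 lower (20.1%), with a median of 0.05. The kinase gene Lck had 8 UMIs in endothelial-like and 6 in progenitor-like cells, and the B-lineage factor Ebf1 had 15 UMIs in endothelial-like and 20 in progenitor-like cells. Ptcra and Il7r had 0 UMIs in endothelial-like cells, and 4 and 10 UMIs in progenitor-like cells. Ighm and Cd79b were at their highest in macrophage-like cells, at 106 and 65.6 CPM, where the Gimap sum was 27.0 CPM. Ighm had 0 UMIs in endothelial-like cells.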

How the data were processed

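Droplet single-cell RNA sequencing was read from 2 deposited matrices, 1 YS and 1 EB library. The authors deposited whole-number UMI counts per gene and barcode, not normalized, aligned to mm10 per the submitters' processing notes; no source used here gives the aligner, counter, annotation or strand setting. Total counts were 30294678 UMIs (YS) and 73915225 UMIs (EB).

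Cells had at least 10% of the 99th percentile of the top 3000 barcodes (6537 UMIs in YS, 6172 in EB), at least 200 genes and at most 10% mitochondrial UMIs. 26 YS and 142 EB barcodes failed the mitochondrial limit. Scrublet, run in scanpy 1.11.5, marked 2 YS (0.258%) and 3 EB (0.160%) barcodes as doublets, which were removed; with so few marked, doublets may remain in the classes. YS cells were clustered with leidenalg 0.10.2 (2000 variable genes without the Gimap rows, 30 components, resolution 1). A cluster was named from at least 3 markers at 2-fold or more, each in at least 25% of its cells. The list mean log2 difference had to reach 0.5. At least 2 markers had to be among the 10 leading genes of the cluster, or 1 under added conditions.

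Counts were summed per class and given as CPM with 95% exact Poisson intervals, ratios with exact conditional intervals (scipy 1.17.1). A gene was compared with at least 10 UMIs in the pair and called at 2-fold; a gene at 0 in 1 group stood at its 3-count bound, or at 1 where the bound did not pass 1. Cells were thinned to 6000 UMIs, and empty droplets were barcodes ranked 10001 to 50000. With 1 library per group, no test was run. The fold and likeness calculations were run on simulated counts with counting error only. Those counts held no clumping of UMIs in single cells, so how the intervals fare under it was not tested.

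The rule for named genes took the members, the other Gimap rows, the class genes, the neighbours, the 10 genes most like the sum and the 3 most like each member, and the 2 highest and 2 lowest of each list, ranked in endothelial-like over other YS cells. Likeness is not given for Gimap8, with 7 UMIs. Gabarapl2, Cd79b and other list genes outside the rule were chosen after their values were seen. The members and lists were chosen with earlier results of these data known. Gene positions are from GENCODE M21 (GRCm38), which held 32655 of 33456 gene IDs.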

Additional observations from a re-analysis of the deposited data

Results flagged for a closer look

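Barcodes left out of the cells also held Gimap UMIs in the yolk sac, above the level in the EB library, which served as the point of comparison. The 516 YS barcodes between 1000 UMIs and the cell minimum had the 6 members at 148 CPM (127 to 171), against 2.41 CPM (1.20 to 4.31) in 1591 EB barcodes of that kind. Gimap4 stood there at 45.3 CPM (34.0 to 59.1) in YS and at 0 in EB. The 26 YS barcodes over the mitochondrial limit had the members at 134 CPM (94.1 to 186) and Gimap4 at 22.4 CPM (8.22 to 48.7), against 5.30 CPM (1.94 to 11.5) and 0 in 142 EB barcodes. For scale, YS empty droplets held 124 CPM (110.0 to 140.2) and Gimap4 at 17.5 CPM, and YS cells 104 CPM and Gimap4 at 14.2 CPM. What these barcodes are was not tested.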

How the results depend on the processing

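Of 93 values of the main results under alternative settings, 81 stayed within the error of the reported value and 12 moved. Of 558 values of single members, 503 stayed and 55 moved. A reversal could be marked only for YS to EB ratios, where none was, and not for class levels or shares of cells. The summed level of progenitor-like cells moved to 352 CPM with the UMI minimum at 20% of the percentile, 327 CPM with a minimum of 1000 UMIs, 357 CPM with at most 5% mitochondrial UMIs, 332 CPM as a mean over cells and 199.97 CPM by marker gates. The share of progenitor-like cells with any member moved to 87.9% by gates and 69.1% thinned. For macrophage-like cells it moved to 17.5% with at least 2 UMIs and 20% thinned, and for erythroid-like cells to 0% with at least 2 UMIs and 1.31% thinned. The YS to EB ratio without erythroid-like cells, an alternative added after seeing the data, was 54.7. The cause of these shifts was not tested, beyond the lower depth that thinning sets.

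With at most 20% mitochondrial UMIs, with doublets kept and at resolution 1.5, no cluster met the rule for the progenitor name; the clusters holding most of those cells had 310.0, 303 and 355 CPM. Over 11 settings the endothelial-like to progenitor-like ratio ran from 29.4 to 143 for Gimap4, from 1.34 to 2.30 for Gimap1, from 1.28 to 2.97 for Gimap5 and from 0.466 to 0.958 for Gimap9. For Gimap6 it ran from 0.917 to 1.73, above 1 in 9 of 11, so its direction is not settled. No paired analysis was possible because each kind of sample has 1 library. Depth limits Gimap8, with 7 UMIs in YS cells.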

Other observations

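The few Gimap UMIs of embryoid bodies were set beside 3 genes of blood and vessel formation, a split chosen after seeing the data. The 82 EB cells with a UMI of Fli1, an ETS factor, held 6 of the 7 Gimap4 UMIs, 4 of the 7 Gimap5 UMIs and 3 of the 4 Gimap8 UMIs, but 13 of the 100 Gimap9 UMIs. The members summed stood at 11.2 CPM (7.36 to 16.2) in EB cells with Fli1, against 2.02 CPM (1.63 to 2.46) in the 1793 without. Gimap9 stood at 5.37 CPM (2.86 to 9.19) in cells with Fli1, against 1.81 CPM (1.45 to 2.23) in cells without. For Tal1, a blood-forming transcription factor, the sums were 6.02 CPM (4.24 to 8.30) in 199 cells with a UMI, against 1.96 CPM (1.57 to 2.42) in 1676 without. For Cdh5 they were 12.5 CPM (5.73 to 23.8) in 22 cells with a UMI, against 2.31 CPM (1.91 to 2.77) in 1853 without. These sums rest on few cells: 27 member UMIs in 18 cells with Fli1, 37 in 24 with Tal1 and 9 in 5 with Cdh5. The top 3 cells held 40.7%, 29.7% and 77.8% of those UMIs. The 13 Gimap9 UMIs with Fli1 lay in 8 cells, 61.5% of them in 3. The intervals do not cover such clumping in single cells. Median depths were 28440 UMIs in cells with Fli1, against 25420 in cells without. They were 28570 against 25307.5 UMIs for Tal1 and 31435 against 25471 UMIs for Cdh5.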
